A study of Saccharomyces cerevisiae with 25 samples.

Results

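The genes that make ergosterol and store it as ester were followed in budding yeast, Saccharomyces cerevisiae, through 6 hours without phosphate. The set held every gene whose name is ERG followed by a number (19 genes) and 10 others chosen by name, namely HMG1, HMG2, IDI1, MVD1, NCP1, UPC2, ECM22, ARE1, ARE2 and HEM13. These 29 genes were all listed, out of 5718 named genes listed in at least 1 library. The rule used gene names and no measured values, but it was set with earlier results of these data known. Later references to members mean these 29 genes.

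RNA was sequenced from one culture, with 1 library per time point. All 25 libraries carried the same labels, with strain background BY4741 and the genotype pho84pr-YFP, delta-vip1. The first element places a yellow fluorescent protein under the promoter of PHO84, a phosphate transporter gene, and the second is a deletion of VIP1, which encodes an inositol pyrophosphate kinase. One library, labelled 0 min, came from cells in high phosphate medium and has no replicate. The 24 libraries without phosphate, taken every 15 min after transfer, form an early window (15 to 120 min), a middle window (135 to 240 min) and a late window (255 to 360 min), with 8 libraries each. Neighbouring times of one culture stood in for replicates. The p-values of the fit measure scatter around a smooth curve. Those of the paralog ratios come from exchanging libraries between the early and late windows. No p-value measures the spread between cultures. No strain with VIP1 intact was analysed here, so nothing below separates an effect of the deletion from that of phosphate withdrawal.

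Ergosterol is the main sterol of yeast membranes. It is built from acetyl-CoA through mevalonate, farnesyl pyrophosphate, squalene and lanosterol, and several of the later enzymes consume molecular oxygen. Upc2 and Ecm22, paralogous transcription activators, bind sterol response elements in the promoters of ERG genes. Are1 and Are2 esterify surplus sterol for storage in lipid droplets. Hem13 makes a precursor of heme, which is the cofactor of the cytochrome P450 enzymes Erg11 and Erg5.

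Levels are reads per 1000000 reads of a library (RPM) and were not divided by gene length unless stated. Read totals recovered from the steps between values were 413033 to 4162690 per library, and a gene was listed only where it had at least 10 reads. Reads of VIP1 itself were present throughout, between 9.69 and 55.7 RPM in the 25 libraries, which does not match a complete loss of its transcript, and what those reads are was not tested. Reads of 138 ribosomal protein genes made up 4.55% to 5.39% of late libraries, against 34.5% to 37.1% of early ones and 33.8% at 0 min. The median over all genes tested was 0.41 log2 units higher late than at 0 min and 0.49 higher late than early. A member has to be read against that shift, and values with each library centred on its median are given where they differ in call or direction.

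The sterol genes differed widely in level. Per kilobase of gene, the late median was highest for ERG25, at 1432 RPM per kb, against 426 RPM per kb at 0 min, where IDI1 and ERG10 lay above it. IDI1 had 531 RPM per kb late and led at 0 min with 505, and ERG10 had 640 late and 452 at 0 min. Lowest at 0 min were UPC2 at 2.41, ARE2 at 12.8, HMG1 at 13.2, HMG2 at 17.5 and ECM22 at 19.3 RPM per kb. The low end held both activators and both copies of HMG-CoA reductase, and the high end held enzymes. UPC2 rested on 10 to 45 reads in the 21 libraries that listed it, and ECM22 on 10 to 156 reads. Most ARE2 values (80.0%) were not whole numbers of reads, as were 28.0% of ERG25 and 12% of ERG11 values, and the genes those reads might be shared with were not traced.

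The promoters of 4 members are shown because they hold the letters that Upc2 and Ecm22 are known to read, or lack them next to the genes that moved most. Each run covers 250 bases before to 50 bases after the annotated gene start in RefSeq build R64 and is written 5′ to 3′ on the strand of the gene. Capitals mark the sterol response element cores TCGTATA and TCGTTTA on either strand. ERG25 lies on the plus strand of chrVII:610314-610613, ERG26 on the minus strand of chrVII:496453-496752, ERG5 on the minus strand of chrXIII:302436-302735 and ERG13 on the minus strand of chrXIII:20486-20785.
ERG25: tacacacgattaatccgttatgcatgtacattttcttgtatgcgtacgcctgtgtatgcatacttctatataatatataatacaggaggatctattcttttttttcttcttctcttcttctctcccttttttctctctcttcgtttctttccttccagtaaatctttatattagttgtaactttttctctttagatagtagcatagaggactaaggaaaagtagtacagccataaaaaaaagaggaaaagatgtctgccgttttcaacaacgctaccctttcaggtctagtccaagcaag
ERG5: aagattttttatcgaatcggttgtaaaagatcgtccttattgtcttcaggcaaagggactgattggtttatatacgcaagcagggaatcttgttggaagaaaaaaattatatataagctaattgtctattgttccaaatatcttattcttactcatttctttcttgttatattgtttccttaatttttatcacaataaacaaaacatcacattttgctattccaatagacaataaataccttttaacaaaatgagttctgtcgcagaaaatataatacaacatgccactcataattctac
ERG26: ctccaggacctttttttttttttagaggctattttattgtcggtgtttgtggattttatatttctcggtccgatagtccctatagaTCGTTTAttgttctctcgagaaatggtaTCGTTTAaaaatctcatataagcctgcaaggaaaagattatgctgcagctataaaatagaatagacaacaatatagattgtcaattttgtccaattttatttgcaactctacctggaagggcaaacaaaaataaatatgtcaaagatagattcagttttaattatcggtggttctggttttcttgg
ERG13: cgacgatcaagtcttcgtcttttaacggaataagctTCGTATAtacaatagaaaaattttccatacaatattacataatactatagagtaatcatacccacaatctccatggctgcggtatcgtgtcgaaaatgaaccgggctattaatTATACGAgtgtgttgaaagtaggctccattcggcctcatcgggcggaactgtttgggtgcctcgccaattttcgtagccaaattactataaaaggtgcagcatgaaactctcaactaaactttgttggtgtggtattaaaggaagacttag
ERG25 and ERG5 had neither core in this window. ERG26 had TCGTTTA beginning 164 and 136 bases before the gene start, and ERG13 had TCGTATA beginning 214 bases before it and its reverse complement beginning 101 bases before it. One core or the other was present in 14 of 29 members, against 9.38% of 6001 promoters in the genome. By core, TCGTTTA was found in 11 members (5.48% of all promoters) and TCGTATA in 3 (4.15%). None of the 6 members whose enzymes use oxygen held a core in the window, against 14 of the other 23. No match says only that these letters are absent from these 300 bases. The core ATTGTT read by the hypoxic repressor Rox1 was found in 13 members, against 35.2% of all promoters, and CACGTG, read by the phosphate-response activator Pho4, was found in ARE2 and NCP1 (2.92% of all promoters). ATTGTT can start on the last letter of a sterol core, as it does at the first one of ERG26.

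The first question was whether transfer to medium without phosphate was followed at once by a change in sterol genes. In the early window no member passed the test against 0 min in either direction, and few genes of any kind did. A call required a Benjamini-Hochberg adjusted p under 0.05 in limma, over all 5230 genes with a 0 min value, and a log2 change of at least 1. Across all genes 0.0765% were called higher and 0.0382% lower in the early window. The members' median difference was -0.08 log2 units, against -0.07 for all genes. All 9 genes of the mevalonate and isoprenoid stretch lay below their 0 min value on average, where 40.6% of all genes lay above it. Their median difference was -0.25 log2 units, with a range of -0.53 to -0.08. These 9 differences share the single 0 min library and are not separate observations. For 3 members the difference had an unadjusted p under 0.05, always lower, namely ERG1 at -0.43 log2 units (adjusted p 0.504), MVD1 at -0.31 (adjusted p 0.574) and ARE1 at -0.42 (adjusted p 0.606). None of them passed after adjustment.

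Member by member, the early libraries were not uniform. At 15 min 16 of 29 members were above their 0 min value, and at 45 min 6 of 29 were. The members' median at 45 min was -0.23 log2 units relative to 0 min, against -0.07 for all genes. ERG28, the scaffold of the C4 demethylation complex, stood well above its 0 min value at the start, with 178 RPM at 15 min against 103 RPM at 0 min.

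**Figure D1:**
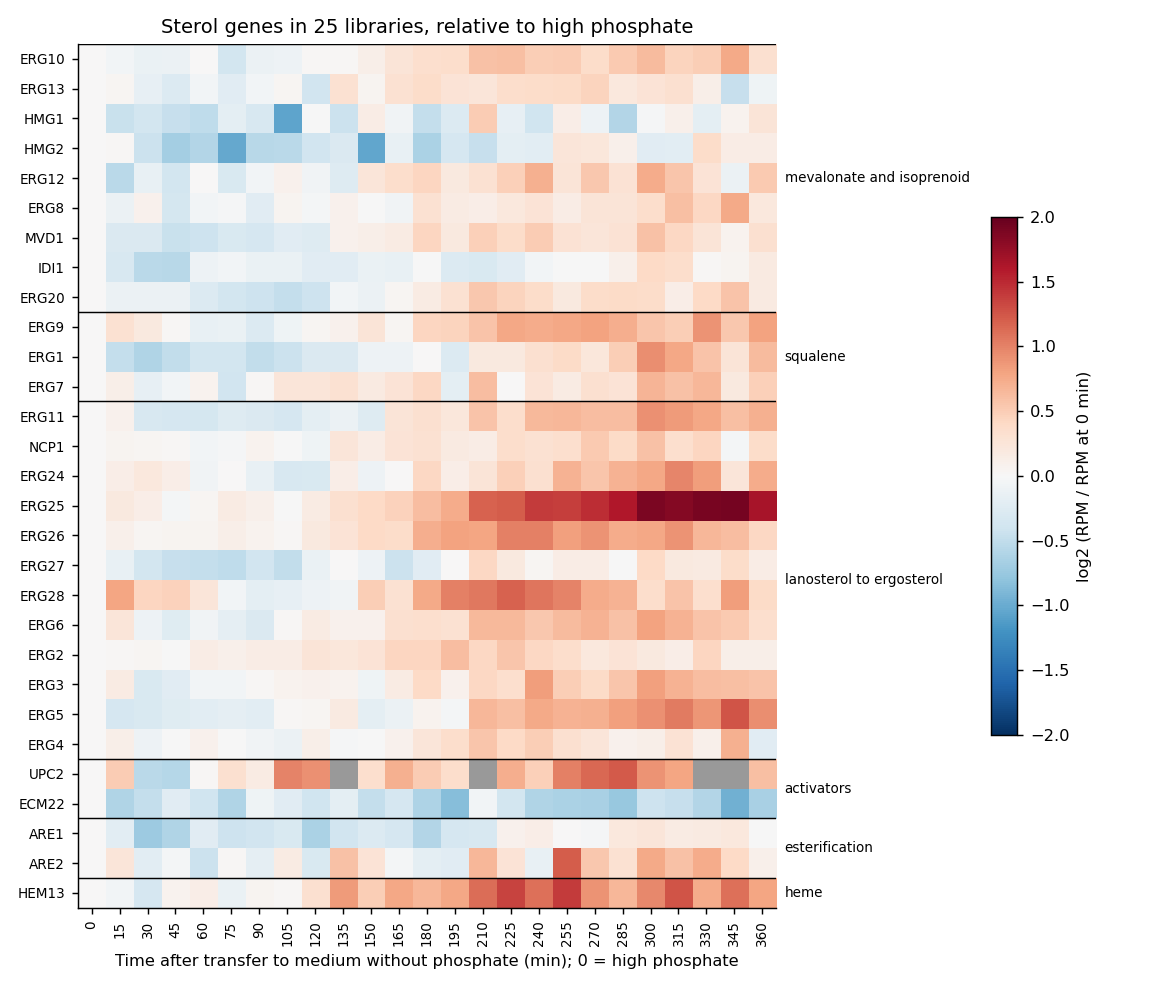
Log2 of the RPM of each of 29 sterol genes (rows, ordered by role) relative to its own 0 min value, in 25 libraries (columns, time in min, 0 being high phosphate). Red is above and blue below the 0 min value, grey is not listed. ERG25 has the deepest red from 270 min on, UPC2 has 4 grey cells, and ECM22 is blue in all 24 libraries without phosphate.

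In the middle window no member was called against 0 min, while 6.33% of all genes were called higher and 4.46% lower. The members' median difference was 0.26 log2 units, against 0.17 for all genes. In this window 7 members had an adjusted p under 0.05 in limma with changes short of 1, all above 0 min (HEM13, ERG28, ERG26, ERG25, ERG9, ERG6 and ERG2). Of all genes 17.3% were higher and 8.66% lower by that rule, and the count of members was 4 with libraries centred on their median, 4 with a spline of 3 degrees of freedom and 0 with plain window means. When a change of 0.58 sufficed, 4 of 29 members passed as higher, about the share of all genes, 14.1%.

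The largest change came in the late window. ERG25, the C-4 methyl sterol oxidase (YGR060W, chromosome VII, 610564 to 611493, R64), was the one member called higher late than at 0 min. Its lowest, median and highest late levels were 1032, 1329 and 1491 RPM, against 397 RPM at 0 min. Every late library lay above the 0 min library, by 1.72 log2 units on average (SE 0.13, adjusted p 2.89e-12 in limma). No member was called lower. Over all genes 21.1% were called higher and 6.85% lower in this comparison, so 1 called member of 29 is a smaller share than the background. The members' median of 0.42 was also near that of all genes, 0.41.

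Below the size required for a call, more members differed. On adjusted p alone, 14 members were higher late than at 0 min and 1, ECM22, was lower, against 39.3% of all genes higher and 12% lower. Centred on the library median, 3 members were higher by that rule, against 19.7% of all genes, and per 1000000 reads outside ribosomal protein genes 2 were, against 16.8%. With a minimum change of 0.58 in place of 1, 10 members passed as higher, against 35.6% of all genes. HEM13 came nearest to a call, with a lowest, median and highest late level of 41.2, 49.4 and 68.3 RPM against 25.9 RPM at 0 min and a log2 difference of 0.98 (SE 0.25, adjusted p 0.00142). Centred, the difference was 0.56 (adjusted p 0.0536). In RPM it passed in 4 of the 24 fits that left out 1 time point (without 270, 285, 330 or 360 min). In all, 19 of 29 members had every listed late value above 0 min, against 51.5% of all genes. A positive mean difference was found for 27 of 29 members, against 72.6% of all genes, and after centring for 14 of 29, against 48.8%.

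Late against early is the better supported comparison, because both windows have 8 libraries. ERG25 and ERG5 were called higher, and no member was called lower. ERG25 had lowest, median and highest late levels of 1032, 1329 and 1491 RPM, against early levels of 387, 431 and 453 RPM. The late and early ranges did not overlap, and the log2 change was 1.62 (SE 0.06, adjusted p 6.69e-21 in limma), a 3.08-fold rise. Centred on the library median it was 1.12 and was still called. Of 5298 genes tested, 6.776% rose by more.

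ERG5 encodes the C-22 sterol desaturase, a cytochrome P450 acting near the end of the pathway (YMR015C, chromosome XIII, 300869 to 302485, R64). Its lowest, median and highest late levels were 207, 238 and 307 RPM, against 101, 110 and 131 RPM in early libraries. The ranges did not overlap, and the log2 change was 1.13 (SE 0.08, adjusted p 1.02e-13 in limma). Centred on the library median, the change of ERG5 was 0.63 and no longer reached the size for a call.

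Across all genes 21.2% were called higher and 4.66% lower late than early, so the 2 of 29 sterol genes called higher are again fewer than the background share. On adjusted p alone, 28 members were higher and 1 was lower, against 65.6% and 14% of all genes. With a minimum change of 0.58, 16 members passed as higher, against 43.9% of all genes. Late and early ranges did not overlap, with all late libraries above, for 17 of 29 members (58.6%), against 36.1% of all genes. The members' median change was 0.60 log2 units, against 0.49 for all genes, and after centring it was 0.10. After centring, 19 of 29 members were above 0, against 49.6% of all genes. On adjusted p alone 10 were then higher and 5 lower, against 31.5% and 34.1% of all genes. The median of the sterol genes thus lay near that of all genes, with ERG25 far above it and ECM22 below it.

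**Figure D2:**
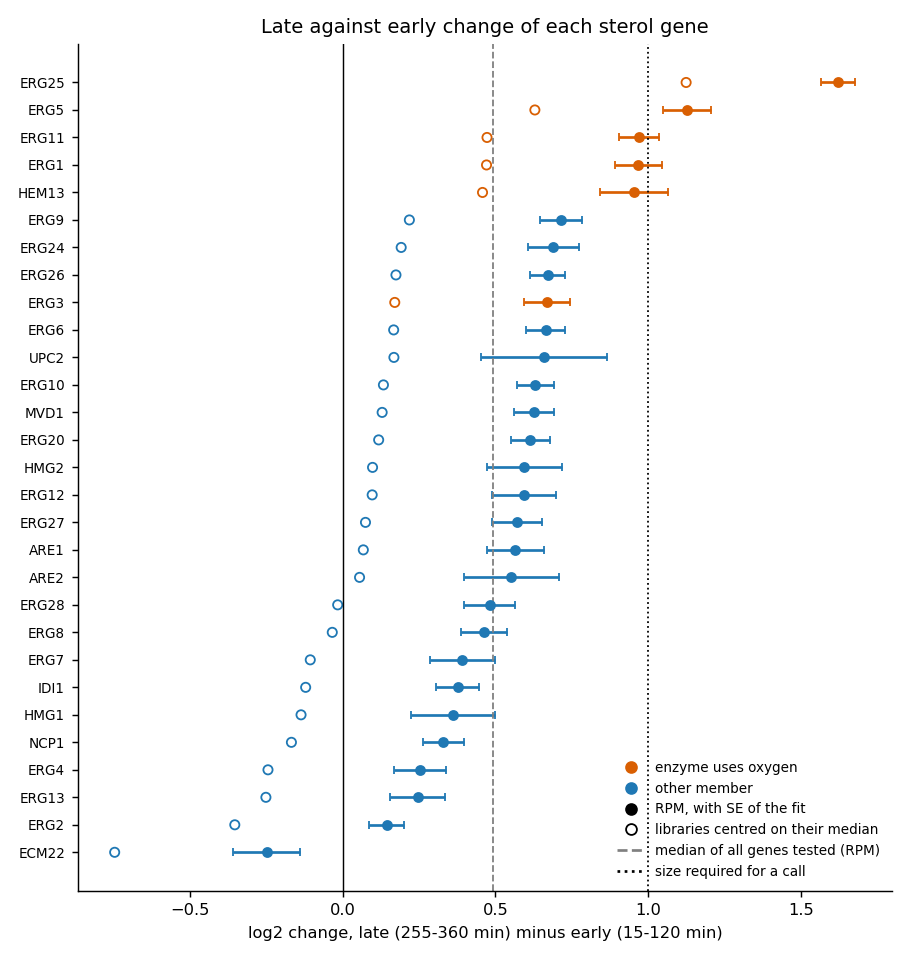
Log2 change of each of 29 sterol genes, late (8 libraries) minus early (8 libraries). Filled points with bars are the change in RPM with its SE from the fit, open points the change after centring each library on its median, orange marks members whose enzymes use oxygen, the dashed line is the median of all genes and the dotted line the size required for a call. ERG25 lies at 1.62 and ECM22 at -0.25, and 5 of the 6 oxygen-using members hold the top 5 places.

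The 6 members whose enzymes use molecular oxygen took the places 1 to 5 and 9 when members were ordered by late against early change. They are ERG25, ERG5, ERG11 (lanosterol C-14 demethylase), ERG1 (squalene epoxidase), HEM13 (coproporphyrinogen oxidase) and ERG3 (C-5 sterol desaturase). Their median change was 0.97 log2 units (0.67 to 1.62), against 0.56 (-0.25 to 0.72) for the other 23 members. After centring, the medians were 0.47 and 0.07. Late against 0 min, which shares the late libraries, the medians were 0.83 for the oxygen-using members and 0.35 for the others. In that comparison the oxygen-using members took the places 1, 2, 3, 6, 10 and 12. Middle against 0 min the medians were 0.26 and 0.23. Early against 0 min they were -0.12 and -0.08. The split by oxygen use was made with earlier results of these data known and is given as a description, with no test of the difference.

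In RPM, ERG11, ERG1 and HEM13 came just short of the required change. Centred on the library median, their late against early changes were 0.47, 0.47 and 0.46, well short of it. Late against 0 min, ERG1 differed by 0.54 in RPM and by 0.11 after centring. ERG11 had lowest, median and highest late levels of 436, 461 and 540 RPM, against 225, 232 and 306 RPM early, with a log2 change of 0.97 (SE 0.07). For ERG1 the late levels were 437, 541 and 714 RPM, against 246, 274 and 306 RPM early, and the log2 change was 0.97 (SE 0.08). HEM13 late levels of 41.2, 49.4 and 68.3 RPM stood against 20.6, 26.6 and 32.3 RPM early, a log2 change of 0.95 (SE 0.11). In all 3 genes the late libraries lay above every early one, with adjusted p of 4.51e-14, 1.77e-12 and 7.09e-09 in limma. In RPM each passed the call when a single library was left out, ERG11 without 15 min, ERG1 without 345 min and HEM13 without 285 min. ERG3 had late levels of 375, 433 and 508 RPM, against 234, 286 and 322 RPM early, again without overlap, and a smaller log2 change of 0.67 (SE 0.08, adjusted p 3.67e-09).

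**Figure D3:**
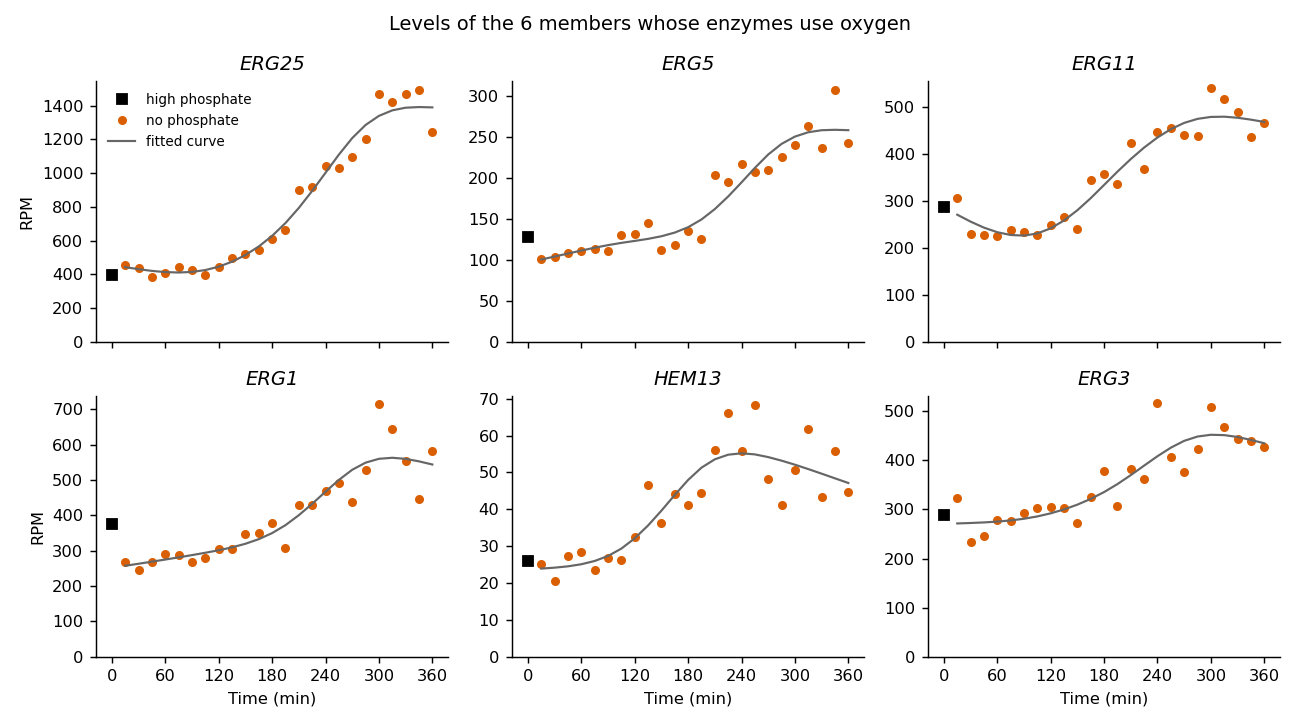
Levels in RPM of the 6 members whose enzymes use oxygen, plotted against time in min. Each orange point is 1 library without phosphate, the black square is the high phosphate library and the line is the fitted curve. ERG25 climbs past 1000 RPM by 240 min, ERG1 is below its 0 min level of 374 RPM in every library up to 165 min, and HEM13 has its fitted maximum at 240 min.

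Change over time among the libraries without phosphate was tested separately, by a joint test of the curve that required a fitted range of at least 1 log2 unit. It called 7 of 29 members, against 42% of all genes tested. In order of fitted range they were ERG25 (1.76), ERG5 (1.37), UPC2 (1.29), ERG28 (1.21), HEM13 (1.21), ERG1 (1.13) and ERG11 (1.08). Their curves did not share a shape. ERG25 and ERG5 had their fitted maximum at 345 min, ERG1 and ERG11 at 315 min, UPC2 at 285 min, HEM13 at 240 min and ERG28 at 210 min. UPC2 was not called when its blanks were set to 5 reads. After centring on the library median 2 members, ERG25 and ERG28, were called, against 30.8% of all genes. Per 1000000 reads outside ribosomal protein genes 3 were, ECM22 being the third, against 31% of all genes.

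Lanosterol loses its methyl groups at carbon 4 through a complex of Erg25 (oxidase), Erg26 (decarboxylating dehydrogenase), Erg27 (keto reductase) and the scaffold Erg28. The transcripts of these 4 genes parted late in the course. ERG26 had late levels of 177, 226 and 249 RPM (lowest, median, highest), against 135, 140 and 153 RPM early, and a log2 change of 0.67 (SE 0.06). ERG27 had late levels of 175, 198 and 234 RPM, against 124, 131 and 162 RPM early, and a log2 change of 0.57 (SE 0.08). Neither reached the size for a call, although in both genes all late libraries lay above all early ones. ERG28 had 130, 159 and 205 RPM late, against 89.2, 109 and 178 RPM early, with overlapping ranges and a log2 change of 0.48 (SE 0.08).

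ERG28, called for change over time, went up and down more than once. It stood at 178 RPM at 15 min, 89.2 RPM at 90 min, 233 RPM at 225 min and 134 RPM at 360 min. Its log2 change between the late and early windows became -0.02 after centring on the library median, so these windows do not describe its course. Within a library, the ratio of ERG25 RPM to ERG26 RPM had a late median of 6.05 (4.37 to 7.25), against an early median of 2.99 (2.79 to 3.16) and 2.97 at 0 min. The ratio to ERG27 had a late median of 6.44 (5.28 to 7.37), against 3.15 (2.75 to 3.60) early and 2.24 at 0 min. For ERG28 the late median was 8.69 (5.03 to 11.3), against 3.85 (2.55 to 4.79) early and 3.86 at 0 min. None of the 3 ratios overlapped between late and early libraries. Such ratios do not depend on the scaling of libraries, are not per length, and were chosen after the values had been seen, so no test is given.

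**Figure D4:**
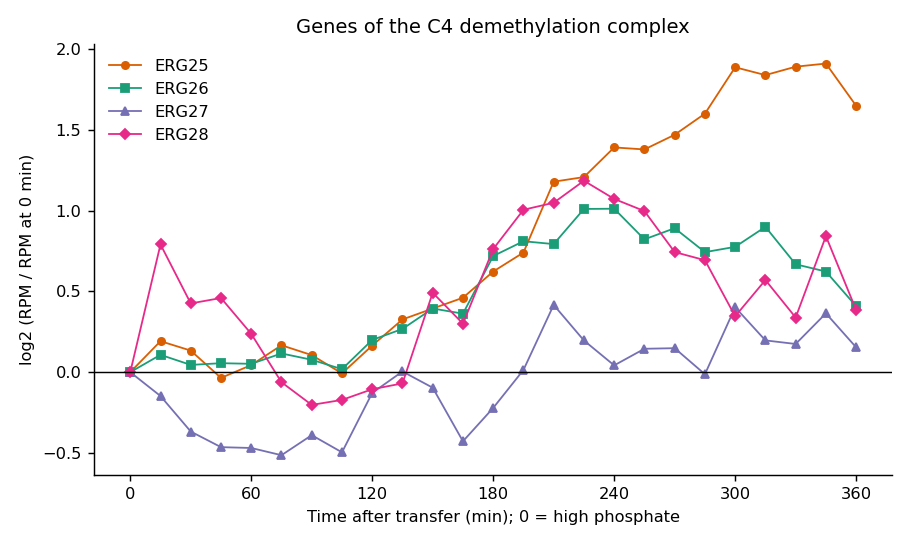
Log2 of RPM relative to 0 min for the 4 genes of the C4 demethylation complex, against time in min, with 1 library per point. ERG25 and ERG26 run together up to 195 min, after which ERG25 continues to 1491 RPM at 345 min while ERG26 and ERG28 have their highest libraries at 240 and 225 min.

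The first stretch of the pathway, from acetyl-CoA to farnesyl pyrophosphate, comprised 9 members, none called in any comparison of windows. Their median late against early change was 0.59 log2 units (0.25 to 0.63), close to the 0.49 of all genes. ERG10, the acetoacetyl-CoA thiolase and the highest of them in RPM, had late levels of 675, 766 and 920 RPM, against 421, 501 and 550 RPM early. ERG20, the farnesyl pyrophosphate synthase, had 389, 458 and 525 RPM late, against 255, 283 and 328 RPM early. Neither gene's ranges overlapped, and the log2 changes were 0.63 and 0.61. Late and early ranges also did not overlap for MVD1 (mevalonate pyrophosphate decarboxylase, 0.63), ERG8 (phosphomevalonate kinase, 0.46) and IDI1 (isopentenyl diphosphate isomerase, 0.38). ERG13 (HMG-CoA synthase) had the smallest difference of the 9, with 41.2, 66.6 and 76.8 RPM late, against 43.1, 52.2 and 57.9 RPM early, and overlapping ranges. The positive differences of ERG8, IDI1, HMG1 and ERG13 turned slightly negative after centring on the library median, to between -0.25 and -0.03.

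In the squalene stretch, ERG9 (squalene synthase) had a late against early log2 change of 0.72, ERG1 one of 0.97 and ERG7 (lanosterol synthase) one of 0.39. ERG9 levels were 186, 222 and 247 RPM late, against 109, 130 and 164 RPM early, without overlap. ERG7 ranges overlapped, with 78.5 to 113 RPM late against 54.0 to 83.2 RPM early, and its difference was -0.11 after centring on the library median.

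The 12 members acting on lanosterol or later had a median late against early difference of 0.67 log2 units (0.14 to 1.62). ERG25 and ERG5 were at the top of it, and ERG24 (C-14 reductase, 0.69) and ERG6 (C-24 methyltransferase, 0.66) had differences near those of ERG26 and ERG3, all without overlap between late and early libraries. At the bottom were NCP1, the P450 reductase that serves Erg11 and Erg5 (0.33), ERG4 (C-24(28) reductase, 0.25) and ERG2 (C-8 isomerase, 0.14). ERG2 had 186, 199 and 233 RPM late, against 171, 187 and 207 RPM early, with overlapping ranges. Its levels were higher in between, at 201, 231 and 264 RPM in the middle window. After centring on the library median, the differences of NCP1, ERG4 and ERG2 were -0.17, -0.24 and -0.35 log2 units. NCP1 thus went with neither of the P450 genes whose enzymes it supplies with electrons, since ERG11 and ERG5 had centred changes of 0.47 and 0.63.

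The activators had late against early differences of opposite sign in RPM. UPC2 had lowest, median and highest levels of 10.0, 12.8 and 15.5 RPM in the 6 late libraries that listed it, against 4.47, 7.81 and 13.2 RPM in 8 early ones (log2 difference 0.66, SE 0.21, adjusted p 0.00554 in limma). Centred on the library median the difference of UPC2 was 0.17 (adjusted p 0.479), so in RPM it did not stand clear of the shift of all genes. ECM22 had 24.2, 30.3 and 35.5 RPM late, against 31.1, 35.9 and 44.4 RPM early and 47.2 RPM at 0 min. Both pairs of ranges overlapped. ECM22 was the only member with a lower mean late than early (log2 difference -0.25, SE 0.11, adjusted p 0.0392), and all 8 late libraries lay below the 0 min value (-0.62, SE 0.24, adjusted p 0.0324). Neither difference reached the size for a call in RPM. Centred on the library median, ECM22 was called lower late than at 0 min, at -1.05 (adjusted p 0.000658 in limma). Its centred difference late against early was -0.75 (adjusted p 5.23e-07 in limma), short of the size for a call.

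The within-library log2 ratio of UPC2 to ECM22 averaged -1.30 ± 0.32 in late libraries (SD, n = 6) and -2.23 ± 0.62 in early ones (SD, n = 8). It was -2.84 at 0 min. The difference of 0.94 had an adjusted p of 0.00999 by an exact permutation test, two-sided and adjusted over 3 paralog pairs, for which the smallest unadjusted p is 0.000666. Of the 6 late ratios, 3 lay above every early one. UPC2 was not listed at 330 and 345 min, and the 345 min library was the shallowest, with a floor of 24.2 RPM that is above every listed UPC2 level. When those blanks were set to 5 reads, a setting chosen after the data were seen, the difference was 0.80 and the adjusted p by the exact test 0.0643, so the call was lost. Time points that follow each other in one culture are not independent, which the permutation ignores.

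For the other paralog pairs no difference in ratio beyond the spread between libraries was detected. HMG1 and HMG2 encode the HMG-CoA reductases. HMG1 had 27.8, 42.3 and 50.002 RPM late, against 20.01, 31.3 and 41.5 RPM early, and HMG2 had 47.1, 60.6 and 70.8 RPM late, against 27.0, 37.7 and 55.5 RPM early. Their log2 ratio averaged -0.54 ± 0.36 late and -0.30 ± 0.44 early (SD, n = 8 each), a difference of -0.24 with an adjusted p of 0.369 by the exact permutation test. Of the sterol acyltransferase genes, ARE1 had 45.3, 52.0 and 54.6 RPM late, against 28.1, 35.2 and 39.9 RPM early, without overlap. ARE2 had 26.5, 36.5 and 57.1 RPM late, against 18.4, 22.9 and 29.1 RPM early, with overlap. Their log2 ratio averaged 0.45 ± 0.36 late and 0.56 ± 0.25 early (SD, n = 8 each), a difference of -0.12 with an adjusted p of 0.492 by the exact permutation test. The late against early log2 difference was 0.56 for ARE1 and 0.55 for ARE2, most of whose values held fractional reads.

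**Figure D5:**
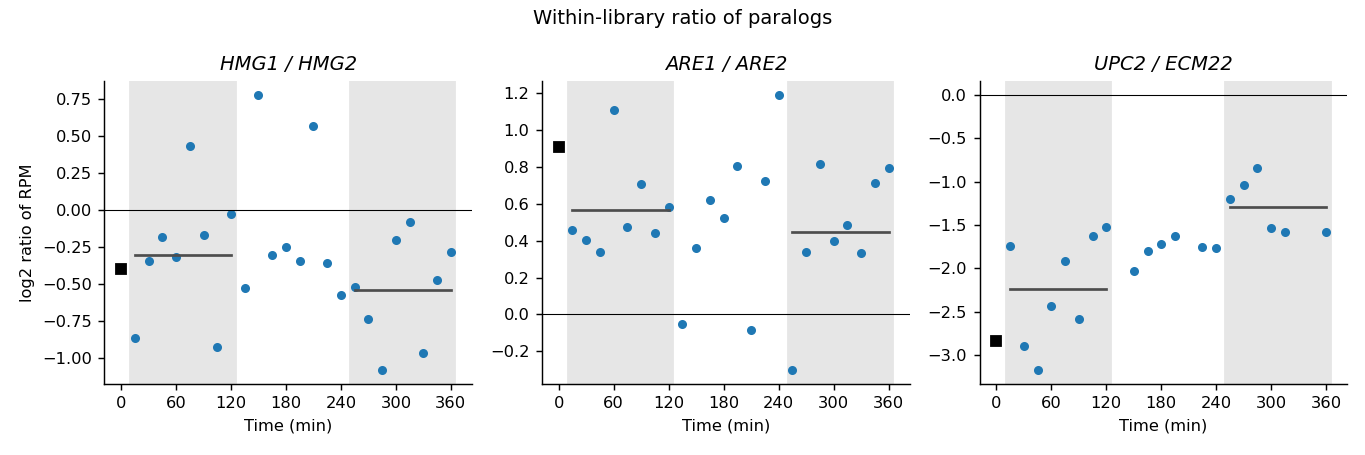
Log2 ratio of RPM within each library for HMG1 to HMG2, ARE1 to ARE2 and UPC2 to ECM22, against time in min. The black square is high phosphate, blue points are libraries without phosphate, grey bands the early and late windows and horizontal lines their means. UPC2 to ECM22 averages -1.30 late and -2.23 early, and the other 2 pairs differ by -0.24 and -0.12.

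Summed over the 29 members, sterol transcripts took 0.743% to 0.872% of all reads in late libraries (median 0.786%), against 0.457% to 0.518% in early ones (median 0.472%) and 0.523% at 0 min. ERG25, which is in this sum, had medians of 1329 RPM late and 431 RPM early. Over the same hours the share of ribosomal protein genes went down, as given above. Of the reads outside ribosomal protein genes, members took 0.782% to 0.920% late (median 0.828%), against 0.707% to 0.793% early (median 0.744%) and 0.790% at 0 min. The late and early ranges then overlapped. Per 1000000 of those reads, a setting chosen after the data were seen, ERG25 was the 1 member called higher and ECM22 the 1 called lower late than at 0 min, against 9.14% of all genes higher and 13.5% lower. Late against early 1 member was called higher, against 7.3% of all genes, and the members' median late against early change was 0.01. In bulk RNA, a larger share of a transcript and less of all other RNA cannot be told apart.

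Genes next to the pathway were read for comparison, from lists chosen with earlier results of these data known. Their counts stand against 21.1% of all genes called higher and 6.85% lower late against 0 min. Late against early the shares were 21.2% higher and 4.66% lower. The changes of these genes are in RPM and include the shift of all genes, 0.41 late against 0 min and 0.49 late against early. Their calls were not checked after centring on the library median. Of 8 other heme synthesis genes, HEM14 (protoporphyrinogen oxidase, another enzyme that uses oxygen) was called higher late than at 0 min (1.23) and late than early (1.00), and the remaining 7 were not called. Of 5 genes of sterol ester breakdown and sterol acetylation, ATF2, the acetyltransferase, fell by 1.73 late against 0 min and by 1.17 late against early, while the remaining 4, the ester hydrolase genes among them, were not called. None of 11 genes tested from the branches that draw isoprenoids for dolichol, ubiquinone and protein prenylation was called in either comparison. Of 17 sterol uptake and hypoxic names, 9 were tested, HEM13 among them. PAU23, a cell wall mannoprotein gene of the seripauperin family, was called higher late than at 0 min (1.28). The HAP1 transcript was called higher late than early (1.09). Whether this strain makes a working Hap1, a heme-responsive activator, was not tested. HAP1 stood lower early than at 0 min (-1.02, not called), and its late level differed from 0 min by 0.07 (adjusted p 0.885). AUS1, a sterol importer, and TIR1, a cell wall mannoprotein gene induced without oxygen, had late against early differences of -0.49 and -0.38 and were not called. The median late against early change of the 9 genes tested was 0.46, near the 0.49 of all genes.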

How the data were processed

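RNA-seq libraries from 25 time points of one culture were used. Per the submitters' processing notes, Bowtie and genome build R64 were used. How reads were counted, on which annotation and strand, and how shared reads were treated remain not given in the sources used here. Values were deposited by the authors as log2 RPM, and the antilogs of a library sum to 1000000. With the lowest listed value of a library read as 10 reads, 96.7% of values under 100 reads and 94.1% of all values came out whole (tolerance 0.01 reads), which gave the depths (median 1417344). Blanks lie under that floor and were left missing, and no count test was run because everything under 10 reads is lacking. Precision at the floor is limited by counting error. Of 6701 rows, 51 had no gene name and no value, and 932 named genes were blank throughout.

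Genes listed in at least 13 libraries and in at least 3 per window were fitted on log2 RPM, without a pseudocount, by limma 3.58.1 (R 4.3.3, trended variance). Time in the 24 libraries without phosphate was described by a natural cubic spline (4 degrees of freedom), and an indicator took up 0 min, leaving 19 residual degrees of freedom (median residual SD 0.24). Contrasts were fitted window means. Of genes tested, 5298 entered late against early and 5230 also had a 0 min value. P-values were adjusted by Benjamini-Hochberg over all of them. Levels given for windows are over listed libraries. UPC2 enters with 21 libraries. Exact permutation tests of paralog ratios used scipy 1.17.1 in Python 3.11.15. The procedure was also run on simulated reads, drawn independently for each library. That run does not cover dependence between neighbouring times or a shift of all genes, and no result above rests on it. Promoter windows were cut from the RefSeq R64 genome at annotated starts of 6001 protein-coding genes and searched on both strands.

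Alternatives were splines with 3 or 6 degrees of freedom, centring on the library median, no filter, genes listed in all libraries only, blanks set to 5 reads, array weights, plain window means, a minimum change of 0.58, libraries left out, and the first and last 6 libraries for the ratios. Members and lists were chosen with earlier results of these data known. All members are named. Of each neighbouring list, at most 4 called genes with the largest test statistic are named. AUS1, TIR1, NSG1 and SSM4 were picked after their values were seen. ERG29 is listed as YMR134W in the files, so the naming rule did not take it.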

Additional observations from a re-analysis of the deposited data

Results flagged for a closer look

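Groups were the libraries of a window that listed a member (29 members in 3 windows, with 8 libraries in 85 groups and 6 in 2). In 4 of these 87 groups 1 library was farther from the others than Dixon's 95% critical value allows, where chance gives about 1 in 20. ERG11 stood at 305.9 RPM at 15 min, above 225.0 to 249.7 RPM in the other 7 early libraries. ERG10 stood at 420.9 RPM at 75 min, below 492.8 to 549.9 RPM in the other early libraries. ERG13 stood at 58.7 RPM at 150 min, below 66.4 to 73.0 RPM in the other middle libraries. NCP1 stood at 152.5 RPM at 345 min, in the shallowest library, below 197.8 to 235.0 RPM in the other late libraries. The ERG11 value touches a result, since without the 15 min library ERG11 was called higher late than early.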

How the results depend on the processing

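No called member changed direction under any setting run, and ERG25 was called late against 0 min and late against early in each of them. With the minimum change at 0.58, 4 members were called higher in the middle window, 10 higher and 1 lower late against 0 min, 16 higher late against early and 24 for change over time. After centring on the library median, 1 member was called lower late against 0 min, 1 higher late against early and 2 for change over time. Per 1000000 reads outside ribosomal protein genes, chosen after seeing the data, those counts were 1, 1 and 3. A spline with 3 degrees of freedom added HEM13 late against 0 min, making 2 members higher. Leaving out each time point in turn gave 1 to 2 members higher late against 0 min, 2 to 3 late against early and 6 to 8 for change over time. The ARE1 to ARE2 difference was 0.0103 (adjusted p 0.918, exact permutation test) between the first and last 6 libraries, and that of UPC2 to ECM22 was 0.80 (adjusted p 0.0643, exact permutation test) with UPC2 blanks at 5 reads. The causes were not tested. The other settings gave counts of called members within 1.5 times those reported. The counts on adjusted p alone in the middle window (7, but 4 after centring or with 3 degrees of freedom and 0 for plain window means) and late against 0 min (14, but 3 after centring) moved more. Change over time was not computed for plain window means. No paired analysis was possible because the windows share no replicate numbers. With 1 culture and 1 library at 0 min, no spread between cultures is known, and depth limits UPC2, ECM22 and ARE2 most.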

Other observations

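Genes that move sterol between membranes were read from a list chosen with earlier results of these data known. Their values are in RPM, include the shift of all genes and were not checked after centring. Of 15 tested, 7 were called higher late than early and 6 higher late than at 0 min, and none lower, against 21.2% and 21.1% of all genes called higher. NPC2 and NCR1, the yeast Niemann-Pick type C proteins of the vacuole, rose by 1.60 and 1.37 log2 units late against early. YFL042C and YLR072W, annotated in R64 as LAM5 and LAM6 and belonging to a family of sterol transfer proteins at membrane contact sites, rose by 1.56 and 1.19. The list's median change was 0.83 log2 units late against early, where all genes had 0.49.

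Of 11 genes that regulate or degrade sterol enzymes, 3 were called higher late than early and 3 late than at 0 min, not far from the shares of all genes, 21.2% and 21.1%. DAP1, a heme-binding partner of Erg11, rose by 1.43 late against early and by 1.45 late against 0 min. NSG2, a yeast relative of the INSIG proteins that act on HMG-CoA reductase, rose by 1.29 and 1.42. Its relative NSG1, on the same list, differed by -0.23 late against early and -0.40 late against 0 min. SSM4, also on the list, differed by -0.21 and -0.34, and neither gene was called. USA1, a subunit of the Hrd1 ubiquitin ligase complex, rose by 1.01 late against early, and HRD1, the ligase that marks Hmg2 for degradation, by 1.01 late against 0 min. HRD1 late against early (0.85) and USA1 late against 0 min (0.58) were not called. These changes too are in RPM, include the shift of all genes and were not checked after centring.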
